A study of Mus musculus with 2 samples.

Results

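The miRNA genes that mark microglia, leukocytes and red blood cells, 10 in number, were followed in small RNA libraries of adult mouse hippocampus. They were chosen by gene name in GENCODE M21 as Mir146, Mir146b, Mir150, Mir155, Mir223, Mir451a, Mir144, Mir486 and Mir3107, together with the miRNA gene at the Mir142 locus, which that annotation names Mir142. All 10 were found among the 2202 miRNA genes of the count tables. The tissue was wild-type mouse hippocampus (C57BL/6, strain B6NCrl, 6 months old), described by the labels as a layer of hippocampus that they do not name and as male, although the sex field reads as not collected. No gene was altered and no treatment was given as far as the labels say, so the 2 libraries form 1 group with no contrast between conditions. The labels number them biological replicates 1 and 2, with 2 biosample entries but 1 donor identifier, and do not say that they came from separate animals. Differences between them may therefore be technical. Replicate 1 held 4247092 and replicate 2 held 5041568 reads counted on miRNA genes. Each level is a CPM value, the gene's count scaled to the total of these reads.

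A miRNA is cut from a hairpin transcript into a short mature RNA, whose seed (bases 2 to 8) pairs with target messages. In the brain, microglia are the resident immune cells, while lymphocytes, neutrophils and red cells arrive with the blood in vessels. miR-142 is made across blood-lineage cells, microglia included. miR-146a, miR-146b and miR-155 are induced by inflammatory signalling in myeloid and lymphoid cells, where the miR-146 pair restrains and miR-155 promotes the response. miR-150 is a miRNA of mature lymphocytes, miR-223 of neutrophils and other myeloid cells, and miR-451a, miR-144 and miR-486 of the red cell lineage. Mir142, Mir146, Mir146b and Mir155 were grouped as resident immune genes, Mir150 and Mir223 as blood white cell genes, and Mir451a, Mir144, Mir486 and Mir3107 as red cell genes. None of these miRNAs is made only by the cells it is known for.

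The mature sequences below are from RefSeq (GRCm38.p6), with the seed in capitals. Of the 10 genes, 8 had an entry there, with 14 mature sequences and 13 distinct seeds. Mir486 and Mir3107 had none, and Mir150 had miR-150-3p alone. The miR-146 sequences are shown because they share a seed, and those of Mir142, Mir142b, Mir451a and Mir451b because their hairpins lie over each other on opposite strands. The others belong to genes described below.
mmu-miR-146a-5p: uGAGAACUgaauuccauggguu
mmu-miR-146b-5p: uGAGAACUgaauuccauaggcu
mmu-miR-155-5p: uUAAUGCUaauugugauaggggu
mmu-miR-142a-3p: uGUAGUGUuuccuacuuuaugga
mmu-miR-142b: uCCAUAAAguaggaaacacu
mmu-miR-150-3p: cUGGUACAggccugggggauag
mmu-miR-223-3p: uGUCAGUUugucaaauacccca
mmu-miR-451a: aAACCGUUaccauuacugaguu
mmu-miR-451b: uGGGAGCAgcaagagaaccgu
mmu-miR-144-3p: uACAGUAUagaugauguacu

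Among these 14 mature sequences the only shared seed was GAGAACU, of miR-146a-5p and miR-146b-5p, and no other mature sequence of the RefSeq table carried it. The pair was identical at 20 of 22 bases and without a break over the first 17. Counted from the 5′ end, miR-146b-5p differed from miR-146a-5p by G18A and U21C. Each of the 14 mature sequences stood on its own strand in exactly 1 of the 2202 annotated hairpins. Copies outside annotated hairpins, and copies of sequences other than these 14, were not searched. This bears on the counts because reads with several alignments were left out of every gene's count.

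Mir150 and Mir146 carried nearly all of the reads of the set. Together the 10 genes stood at 2955 CPM in replicate 1 and at 2658 CPM in replicate 2, of which Mir150 made up 72.4% and 73.3%. All 10 had a count in at least 1 library, as had 36.3% of all miRNA genes. Of the 10, 9 had a count in both libraries, as had 29.7% of all. A level of 10 CPM or more in both libraries was reached by 4 of the 10 (Mir150, Mir146, Mir155 and Mir486), against 13.7% of all miRNA genes. The ranks among all genes ran from 61 for Mir150 to 551 for Mir144.

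**Figure D1:**
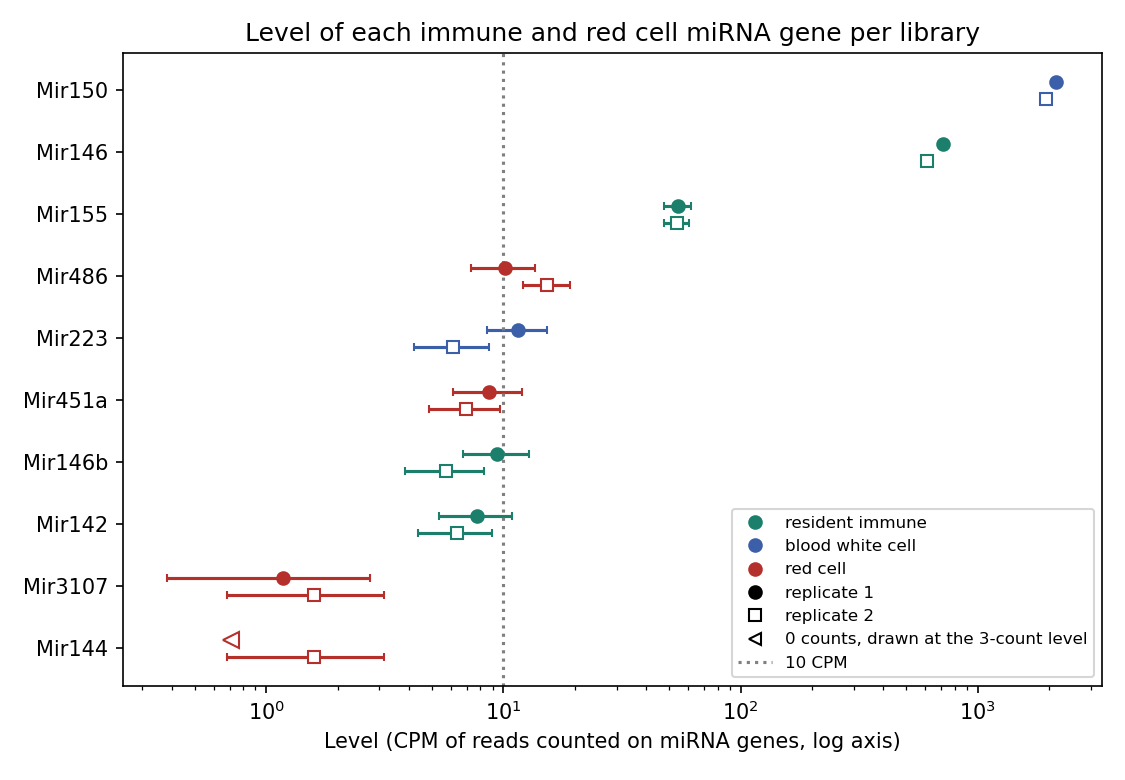
Level of each gene in CPM (log axis) in replicates 1 and 2, coloured by group, with exact 95% Clopper-Pearson intervals of counting error. Mir150 and Mir146 stand at 611 CPM or more, Mir155 near 54 CPM, and the other 7 genes at or below 15.3 CPM, with Mir144 at 0 counts in replicate 1.

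Among the resident immune genes, Mir146 (ENSMUSG00000065601.1, chromosome 11, 43374397 to 43374461, minus strand, in no other annotated gene) had the highest level. It had 3030 counts or 713 CPM in replicate 1 (exact 95% interval 688 to 739) and 3080 counts or 611 CPM in replicate 2 (590 to 633). The intervals did not overlap, and Mir146 ranked 110 of 2202 by its mean of 662 ± 72.5 CPM (SD, n = 2). Mir155 lies over an exon of its noncoding host gene Mir155hg (ENSMUSG00000065397.1, chromosome 16, 84714140 to 84714204). It had 231 counts or 54.4 CPM in replicate 1 and 272 counts or 54.0 CPM in replicate 2. These values were nearly equal, with intervals of 47.6 to 61.9 CPM and 47.7 to 60.8 CPM.

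Mir146b and Mir142 were far below their group's leading gene. Mir146b, in an intron of Mfsd13a (ENSMUSG00000070127.2, chromosome 19, 46342762 to 46342870), had 40 counts or 9.42 CPM in replicate 1 and 29 counts or 5.75 CPM in replicate 2. Mir142, in an intron of its noncoding host gene Mir142hg (ENSMUSG00000105196.1, chromosome 11, 87756864 to 87756927), had 33 counts or 7.77 CPM and 32 counts or 6.35 CPM. Both genes were thus low in each library. The seed-sharing genes Mir146 and Mir146b differed 75.8-fold in replicate 1 (exact 95% interval of the ratio of counts 55.5 to 106) and 106-fold in replicate 2 (73.8 to 159). Per base of hairpin the ratios were 127 and 178, since the Mir146b hairpin is annotated with 109 bases and that of Mir146 with 65. As RNA under 30 bases was sequenced, counts need not scale with hairpin length. Values per base, here and below, are a check only.

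Of the blood white cell genes, Mir150 (ENSMUSG00000065495.1, chromosome 7, 45121757 to 45121821, in no other annotated gene) was the highest of the whole set. It had 9082 counts or 2138 CPM in replicate 1 (exact 95% interval 2095 to 2183) and 9827 counts or 1949 CPM in replicate 2 (1911 to 1988). It ranked 61 in replicate 1 and 62 in replicate 2. Mir223, over an exon of the noncoding gene F630028O10Rik (ENSMUSG00000076066.1, chromosome X, 96242817 to 96242926), had 49 counts or 11.5 CPM in replicate 1 and 31 counts or 6.15 CPM in replicate 2. Mir150 thus stood 185 times above Mir223 in replicate 1 (140 to 251) and 317 times in replicate 2 (223 to 467). Mir142, known across blood-lineage cells, had 7.77 and 6.35 CPM in the same libraries. Which cells the Mir150 reads came from was not tested. Per base of hairpin the ratios were 314 and 536.

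The red cell genes had low counts in both libraries. Mir486, in introns of the erythroid ankyrin gene Ank1 and, on the other strand, of the antisense gene Gm15816 (ENSMUSG00000070084.3, chromosome 8, 23142555 to 23142682), had 43 counts or 10.1 CPM in replicate 1 and 77 counts or 15.3 CPM in replicate 2. Mir451a (ENSMUSG00000070065.1, chromosome 11, 78073170 to 78073241) had 37 counts or 8.71 CPM and 35 counts or 6.94 CPM. Mir451a is cut without Dicer, by the Argonaute protein Ago2, unlike the other miRNAs of the set. Mir144, which shares its primary transcript (ENSMUSG00000065401.1, chromosome 11, 78073005 to 78073070), lies 99 bases upstream of it and had 0 counts in replicate 1 and 8 in replicate 2. For the 0 counts the limit was set at 0.706 CPM, the level of 3 counts, and the exact 95% interval reaches 0.869 CPM. The 8 counts correspond to 1.59 CPM (exact 95% interval 0.685 to 3.13). Mir451a and Mir144 thus had 37 and 0 counts in replicate 1, and a ratio of counts of 4.38 in replicate 2 (exact 95% interval 1.99 to 10.9). Mir3107, on the strand opposite Mir486 (ENSMUSG00000106471.1, chromosome 8, 23142573 to 23142662), had 5 and 8 counts, or 1.18 and 1.59 CPM.

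**Figure D2:**
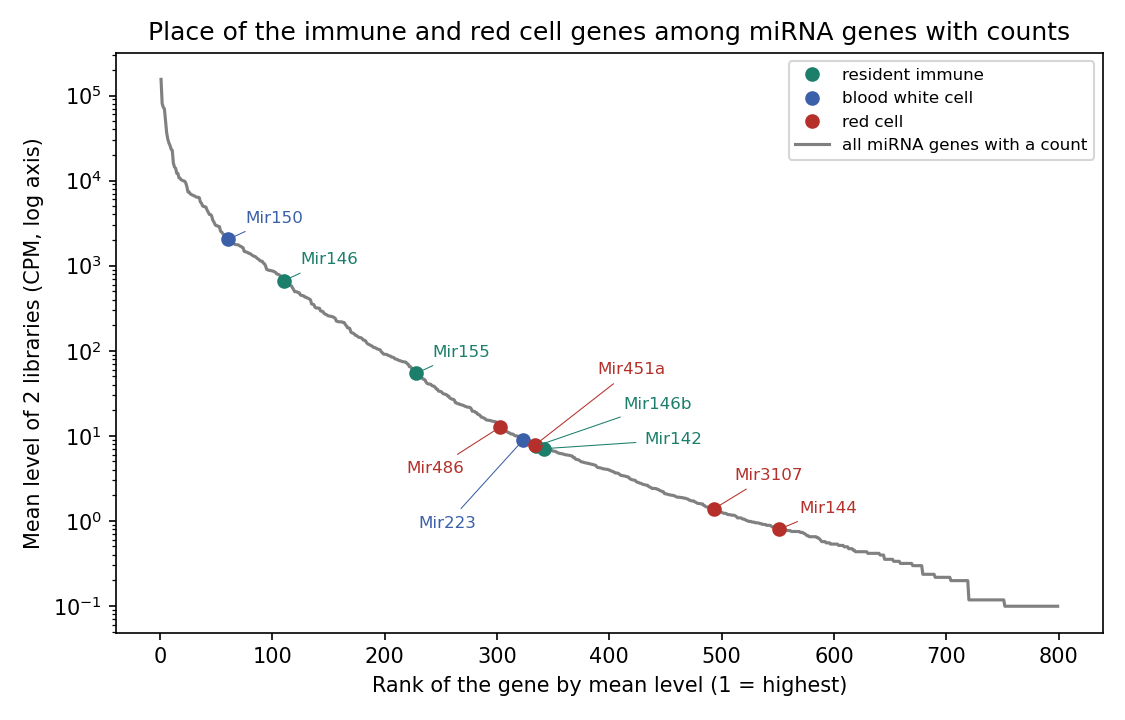
Mean level of the 2 libraries in CPM (log axis) against rank, for all miRNA genes with a count (grey line), with the 10 genes as coloured points. Mir150 and Mir146 lie in the upper part of the curve, at ranks 61 and 110, and Mir486, Mir223, Mir451a, Mir146b and Mir142 lie close together at ranks 303 to 342.

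In the order of mean levels, Mir150, Mir146, Mir155 and the next gene were each separated by more than their range over the libraries. Of the following 5 genes, Mir486 (12.7 ± 3.64 CPM), Mir223 (8.84 ± 3.81 CPM), Mir451a (7.83 ± 1.25 CPM), Mir146b (7.59 ± 2.59 CPM) and Mir142 (7.06 ± 1.01 CPM; SD, n = 2) each overlapped the next in range. Mir486 overlapped Mir223 alone and stood above Mir451a, Mir146b and Mir142 in both libraries. Mir223, Mir451a, Mir146b and Mir142 overlapped in every pair and could not be ordered, and they hold genes of all 3 groups. The myeloid gene Mir223 and the red cell gene Mir451a, for example, had a ratio of counts of 1.32 in replicate 1 (0.847 to 2.09) and of 0.886 in replicate 2 (0.528 to 1.48), and both intervals include 1. Mir3107 and Mir144 stood below these 5 and overlapped each other. Per base of hairpin the first 3 places did not change, the 5 genes came in another order, led by Mir142, and Mir3107 and Mir144 remained last.

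As groups, resident immune, blood white cell and red cell genes kept the same order in both libraries. The sum of the resident immune genes was 785 CPM in replicate 1 (exact 95% interval 759 to 812) against 677 CPM in replicate 2 (654 to 700.1). The blood white cell genes summed to 2150 CPM (2106 to 2194) and 1955 CPM (1917 to 1994), and the red cell genes to 20.0 CPM (16.0 to 24.7) and 25.4 CPM (21.2 to 30.2). The resident immune sum was 0.365 of the blood white cell sum in replicate 1 (0.351 to 0.380) and 0.346 in replicate 2 (0.333 to 0.360). The blood white cell sum was 107 times the red cell sum in replicate 1 (86.8 to 135) and 77.0 times in replicate 2 (64.7 to 92.4). Per base of hairpin, these ratios were 155 and 117. Mir486 held 50.6% and 60.2% of the red cell counts. Whether it shares reads with the overlapping Mir3107 was not tested, and any such reads would be missing from the red cell sums.

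The sums rest on a single gene each in the first pair of groups. Mir150 held 99.5% and 99.7% of the blood white cell counts, and Mir146 held 90.9% and 90.2% of the resident immune counts. Without Mir146 the resident immune genes summed to 71.6 and 66.1 CPM. The white cell group without Mir150 is Mir223 alone, at 11.5 and 6.15 CPM, which is below the red cell sum of the same library. In bulk tissue, fewer cells of a type and less RNA per cell cannot be told apart, and the sums describe miRNAs and not numbers of cells.

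**Figure D3:**
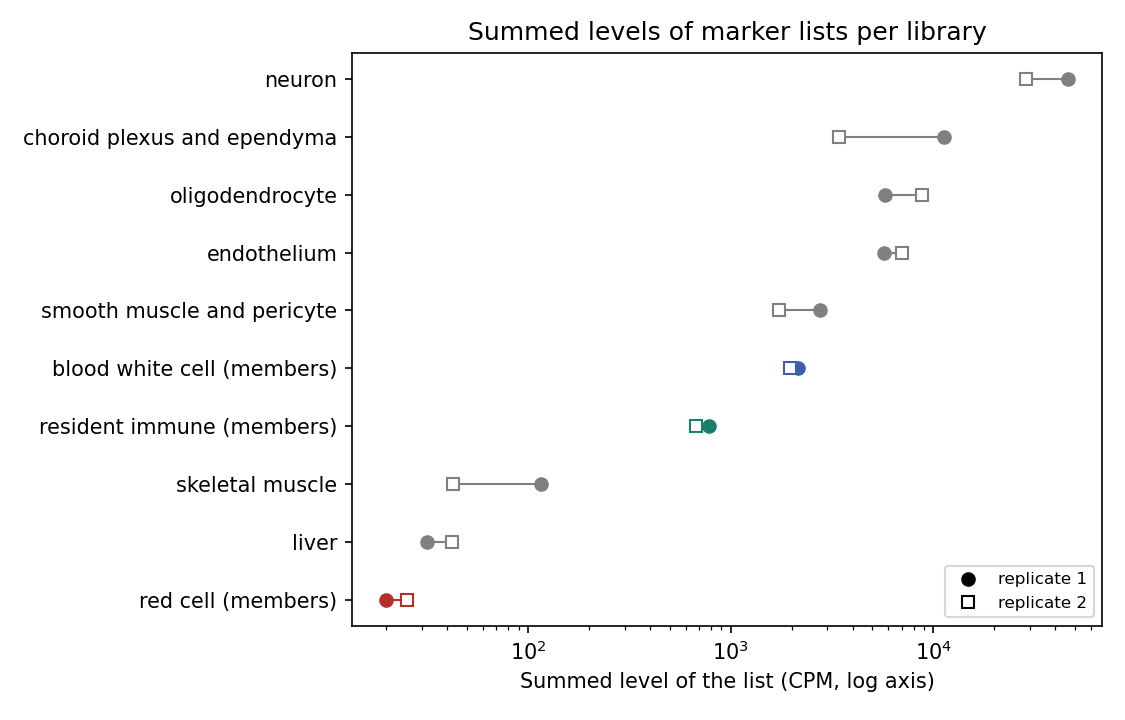
Summed level in CPM (log axis) of the 3 groups (coloured) and of 7 other marker lists (grey) in replicate 1 (filled circles) and replicate 2 (open squares). The white cell and resident immune sums lie below those of the endothelial, oligodendrocyte and neuronal lists in both libraries, the smooth muscle sum lies above the white cell sum in replicate 1 and below it in replicate 2, and the red cell sum is the lowest shown, at 20.0 and 25.4 CPM.

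The position of the hairpins affected what could be counted. Of the 10 genes, 4 (Mir142, Mir451a, Mir486 and Mir3107) lie over another annotated miRNA hairpin on the opposite strand. The share was 64 of all 2202 genes (2.91%), and 24 of the 302 at 10 CPM or more in both libraries (7.95%). Mir486 and Mir3107 lie over each other and were both chosen by name. In the counts made without regard to strand, each of these 4 had 0 counts in both libraries, and the stranded counts used here were the 33 and 32, 37 and 35, 43 and 77, and 5 and 8 given above. Chromosome 11 carries 4 of the 10 genes (Mir146, Mir142, Mir144 and Mir451a).

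**Figure D4:**
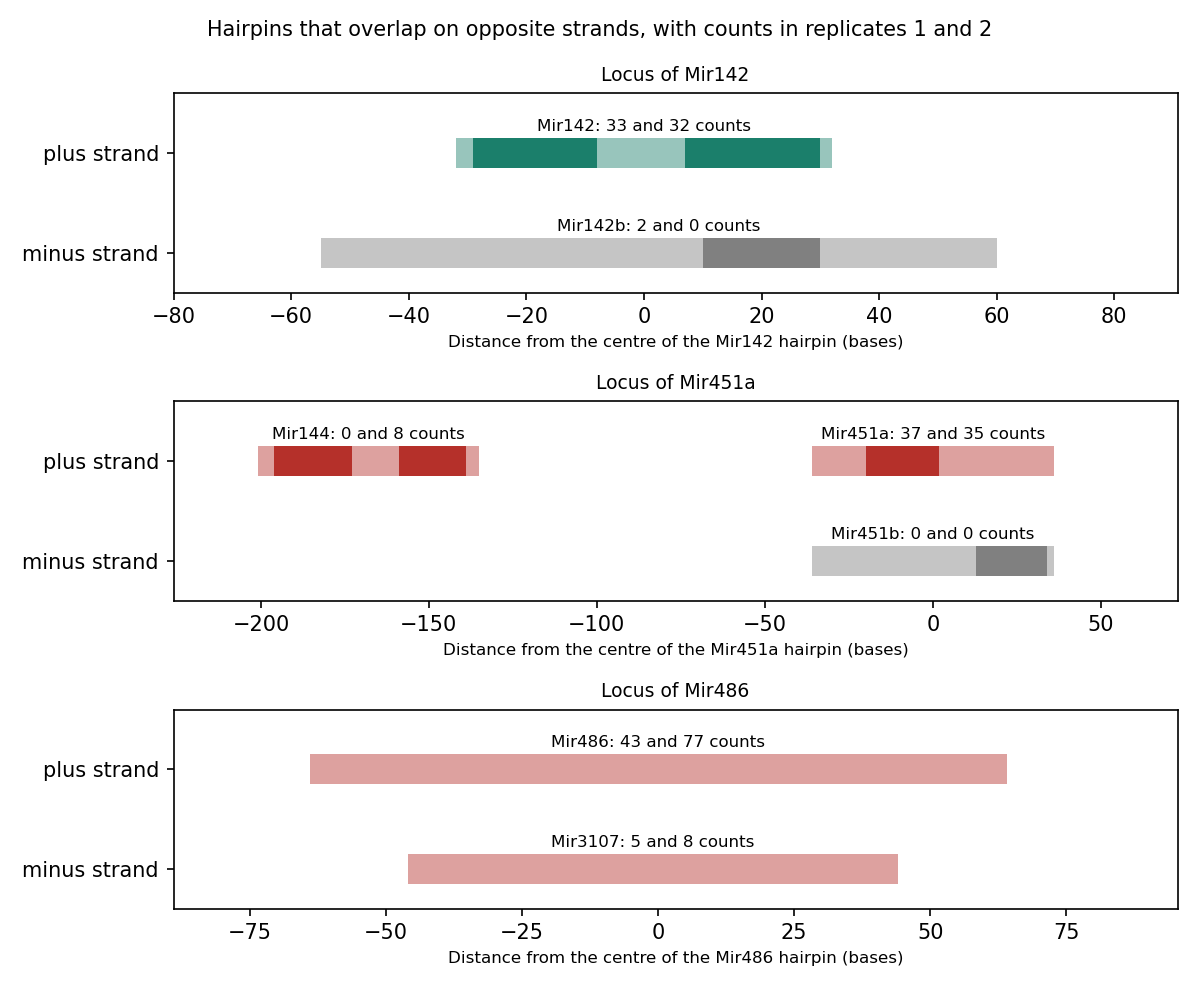
Hairpins (light bars) and RefSeq mature sequences (dark bars) on the plus and minus strands, by distance in bases from the centre of the Mir142, Mir451a or Mir486 hairpin, with the counts in replicates 1 and 2. Mir142 and Mir451a have over 30 counts in each library while Mir142b and Mir451b have 2 or fewer, and Mir486 and Mir3107 both have counts; no mature sequence is drawn for the last pair.

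At the Mir142 locus, Mir142b (ENSMUSG00000065420.2, chromosome 11, 87756841 to 87756955, minus strand) had 2 counts in replicate 1 and 0 in replicate 2. The mature miR-142b printed above is, over all its 20 bases, the reverse complement of a stretch of miR-142a-3p. At the red cell locus, Mir451b (ENSMUSG00000104813.1, same positions as Mir451a, minus strand) had 0 counts in both libraries, and the mature miR-451a and miR-451b do not overlap in position. Both loci thus gave counts nearly or wholly from the strand of the gene of the set. The third locus differed, since Mir486 and Mir3107 had counts on both strands, at a ratio of 8.60 in replicate 1 (3.41 to 27.8) and 9.63 in replicate 2 (4.65 to 23.1). Reads of this pair that aligned to more than 1 place would be missing from both counts, and sequence shared between the pair was not tested.

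Differences between the libraries were tested for every gene with at least 10 counts in sum, by an exact two-sided binomial test with Benjamini-Hochberg adjustment over the 522 genes tested and a threshold of 0.05. The test compares the reads of 2 libraries and has no replicate check. It called 51.0% of all tested genes (28.2% as higher and 22.8% as lower in replicate 2). The split of 147 higher and 119 lower genes depended on the scaling, and was 123 and 135 with TMM factors, 122 and 135 with DESeq2 size factors, and 166 and 109 with all reads as library size. Of the 9 genes of the set that could be tested, 3 were called (Mir150, Mir146 and Mir223), all as lower in replicate 2. Mir144, with 8 counts in sum, was not tested. The median log2 ratio (replicate 2 over replicate 1) was −0.22 over the 9 genes and 0.09 over all tested genes, and the median size of the log2 ratio was 0.33 against 0.46.

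Mir150 was lower in replicate 2 by a log2 ratio of −0.13 (exact 95% interval −0.17 to −0.09, adjusted p = 7.2e-10 by the exact binomial test). Mir146 was lower by −0.22 (−0.30 to −0.15, adjusted p = 5.0e-09, same exact test). These are differences of 1.10-fold and 1.17-fold, in genes with 3030 counts or more in each library. Mir223 was lower by −0.90, or 1.87-fold (−1.61 to −0.23, adjusted p = 0.014, same exact test), with 49 and 31 counts. The other tested genes of the set did not pass. Mir486 had a log2 ratio of 0.59 (0.04 to 1.17, adjusted p = 0.065, exact test), and it passed at p = 0.034 when library size was taken from all reads. Mir146b had a log2 ratio of −0.70 (−1.45 to 0.01), Mir451a of −0.33 (−1.04 to 0.38), Mir142 of −0.29 (−1.04 to 0.45), Mir3107 of 0.38 (−1.36 to 2.39) and Mir155 of −0.01 (−0.27 to 0.25). All these intervals but that of Mir486 include 0, and differences within them were not detectable at this depth.

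**Figure D5:**
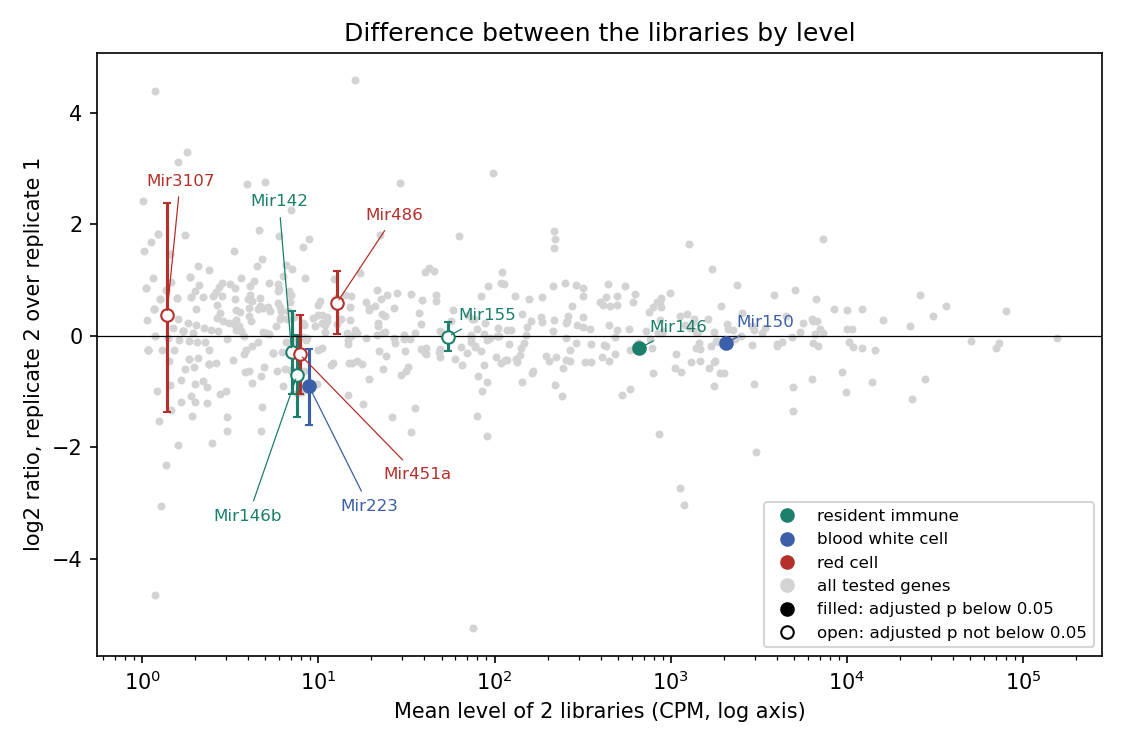
The log2 ratio of replicate 2 over replicate 1 against mean level in CPM (log axis) for all 522 tested genes (grey) and the 9 tested genes of the set, with exact 95% intervals. Filled points passed the adjusted threshold of 0.05 (Mir150, Mir146 and Mir223), and the intervals widen from Mir150 to Mir3107 as counts fall.

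The libraries also differed in markers of other cells. The choroid plexus and ependyma list (5 of 6 genes at 10 CPM in both libraries, none at 0) had a sum of 11342 CPM in replicate 1 against 3408 CPM in replicate 2. It was led by Mir204 (7102 and 2780 CPM). In this list 4 genes passed as lower in replicate 2, and 1 passed as higher, Mir449a (17.7 and 28.0 CPM). The neuron list (5 of 8, none at 0, led by Mir132) summed to 46357 and 28532 CPM, with the 3 defining Mir124a genes at 8 counts or fewer each. Copies of the Mir124a sequences were not searched. Any of their reads that aligned to more than 1 place would be missing from these counts and from the sum. The low counts thus do not show that miR-124 was scarce. Mir132 alone stood at 32072 and 14605 CPM, and the other 7 genes summed to 14285 and 13928 CPM. Mir138-1 and Mir138-2 passed as higher in replicate 2 (log2 ratios 0.05 and 0.10, adjusted p = 0.0033 and 3.0e-08 by the exact test), but neither passed with TMM factors (−0.02 and 0.03) or DESeq2 size factors, where Mir138-1 changed sign. The smooth muscle and pericyte list (2 of 2, none at 0) summed to 2750 and 1742 CPM. The skeletal muscle list (1 of 3, none at 0 in both, led by Mir206) summed to 116 and 42.8 CPM. These 4 sums were lower in replicate 2, as were Mir150, Mir146 and Mir223. The oligodendrocyte list (2 of 2, none at 0, 5805 and 8777 CPM) went the other way, led by Mir219a-2 (3630 and 6444 CPM). Its other gene, Mir338 (2175 and 2333 CPM), passed as higher, but not with TMM or DESeq2 factors. The endothelial list (1 of 2, with Mir126b at 0, 5706 and 7027 CPM) was also higher in replicate 2. So was the liver gene Mir122 (31.8 and 42.4 CPM), which did not pass with TMM or DESeq2 factors. The part of these differences in the levels of the set was not tested. Per the labels, adapters were trimmed under protocol versions that differ between the libraries, so version and library cannot be told apart.

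Other miRNAs known from the same cells showed no common direction. Of 7 further macrophage and microglia genes, 3 of which are the Mir124a genes that the neuron list also holds, 3 reached 10 CPM in both libraries, led by Mir22 (5798 and 6949 CPM) and Mir342 (4888 and 4842 CPM). Of the 5 tested, Mir22 passed as higher and Mir21a, a gene induced in activated myeloid cells, as lower in replicate 2 (774 and 401 CPM). Mir511, which lies in the macrophage mannose receptor gene, had 6 and 0 counts. Of 9 further lymphocyte genes, all reached 10 CPM in both libraries, led by Mir29a (14416 and 17509 CPM) and Mir181b-2 (1799 and 1578 CPM). Mir29a, Mir15b and Mir181a-2 passed as higher, and Mir181b-2, Mir17 and Mir181a-1 as lower.

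Of 9 further red cell and reticulocyte genes, 5 reached 10 CPM in both libraries, led by Mir92-1 (386 and 715 CPM) and Mir15a (335 and 492 CPM). Of the 8 tested, Mir92-1 and Mir15a passed as higher and Mir16-1 as lower in replicate 2. The median log2 ratios of these 3 lists were −0.01, −0.19 and 0.17, beside 0.09 for all tested genes. Of the platelet and endothelial pair, Mir126a passed as higher (5706 and 7027 CPM), and Mir126b had 0 counts. Many genes of these lists are also made by neurons, glia or vessels. Copies of their sequences were not searched, so reads shared between loci may be missing from their counts. Mir138-1, Mir138-2, Mir338, Mir449a, Mir21a, Mir511, Mir15b, Mir181a-1, Mir181a-2, Mir17 and Mir16-1 were named after their values were seen.

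Genes with a like level were taken as those nearest in log2(CPM + 1) over the 2 libraries, which gives only 2 points per gene. Mir27b lay nearest to Mir150 (1951 and 1802 CPM, distance 0.17), Mir1983 to Mir146 (675 and 620.4 CPM, distance 0.08) and Mir345 to Mir155 (51.3 and 51.4 CPM, distance 0.11).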

How the data were processed

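The authors deposited 1 table of raw read counts for each library, on mm10 with GENCODE M21 per the file headers. The aligner and the counter were not given in the sources used here. RNA under 30 bases was sequenced, per the labels. The sense-strand counts were taken, and 4 summary rows were left out. Of 11106392 and 12627039 reads, 38.2% and 39.9% were counted on miRNA genes, while 43.8% and 45.7% aligned to more than 1 place and are in no gene's count. Intervals are exact 95% Clopper-Pearson intervals and, as no molecular identifiers are named, cover counting error only. Log2 ratios have 0.5 counts added. Python 3.11.15 with scipy 1.17.1, and R 4.3.3 with edgeR 4.0.16 (TMM factors) and DESeq2 1.42.0 (size factors) were used. The binomial test was run on simulated Poisson counts with set fold changes. These hold counting error alone, as the test itself assumes, so the simulation says nothing about other variation between the libraries. The genes, groups and lists were chosen with earlier results of these data known. Named genes are the 10 genes, any hairpin opposite them, the 2 highest of each list and the 1 nearest in level to each of the 3 highest. Leading or defining marker genes are also named, and genes named after their values were seen are listed with the lists.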

Additional observations from a re-analysis of the deposited data

How the results depend on the processing

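The 3 calls among the 10 genes kept their direction under every setting run, except that Mir223 was not tested when a sum of 100 counts was required. Over all settings 3 or 4 of the 10 were called. Mir486 was called with all reads as library size and with the 100-count minimum, and Mir144 (0 and 8 counts) was called without a count minimum. Mir155 had no stable sign, with a log2 ratio of 0.0501 with all reads as library size and of 0.0042 without regard to strand. Mir342 passed as higher with all reads as library size and as lower with TMM or DESeq2 factors. With all reads as library size, the sums of the resident immune, blood white cell and red cell groups were 285, 801 and 8.90 CPM of all reads. Without regard to strand the white cell sum was 2202 CPM and the red cell sum 0.856 CPM. Without the genes overlapped by another hairpin the red cell sum was 0.793 CPM, and no ratio to it was formed under these last 2 settings, since replicate 1 had 0 counts. Per base of hairpin, the mean ratios to the red cell sum were 48.4 for resident immune and 136 for blood white cell genes. A minimum of 1 CPM counted 9 of the 10 genes as detected and a minimum of 100 CPM counted 2. Moving Mir142 to the white cell group left the sums and ratios within their spread between libraries. Depth limits Mir223, Mir142, Mir146b, Mir451a, Mir144 and Mir3107, with 49 counts or fewer per library. No paired analysis was possible because the libraries form 1 group.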
